A study of Mus musculus with 2 samples.

Results

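The loci described here are stretches of the mouse genome where long reads without a splice junction ran against an annotated gene, on the opposite strand, in hippocampus. They were found by taking every transcript model that the deposited tables class as antisense and give 1 exon, merging models that overlap on the same strand within and between the libraries, and keeping merged loci with at least 10 reads in each library. This left 707 of 26880 merged loci. The members were thus chosen by their read counts, so their levels are given as a description and are not tested. The series holds 1 group of 2 libraries of long-read RNA-seq, in which a cDNA copy of a transcript is read as 1 read, and it has no other condition. Each library was made from 2 µg of total RNA of a pool of 3 female mice of the strain B6CASTF1/J, a first-generation cross of C57BL/6J with CAST/EiJ, aged 14 days, of tissue named as a layer of the hippocampus, with ERCC and SIRV spike-in RNAs added. The sample characteristics number different animals for the 2 pools, while a description line repeats the animals of replicate 1 for both.

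Replicate 1 held 1168366 reads and replicate 2 held 888704, so 1 read was worth 0.856 and 1.13 CPM (reads per 1e6 reads of the library). Antisense models took 9.23% and 7.17% of the reads, 8.20% ± 1.46 (SD, n = 2), and models with 1 exon made up 97.6% and 97.2% of those antisense reads. The 707 loci held 52629 reads in replicate 1 and 32953 in replicate 2, which is 50.02% and 53.2% of the single-exon antisense reads. All 31 markers of hippocampal neurons, glia, vessels and choroid plexus that were looked up had reads in at least 1 library, among them Slc17a7 of excitatory neurons (1321 and 1202 reads), C1ql2 of dentate granule cells (95 and 126) and Mbp of myelin (3840 and 3893). The choroid plexus marker Ttr stood apart with 5325 reads in replicate 1 and 5 in replicate 2, and Kcnj13 and Clic6 had 49 and 22 reads in replicate 1 and none in replicate 2. In RNA from whole tissue, fewer cells of a type and less RNA per cell cannot be told apart.

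Antisense transcripts are RNAs copied from the strand opposite a gene, and those that overlap a gene's exons can pair with its mRNA. Some start at a promoter of their own, some continue from a neighbouring gene past its end, and many are poorly known. A spliced read shows its strand through the bases of its splice sites, which a read with 1 exon does not have, and how the strand of such reads was set is not stated in the material used. An oligo-dT primer, a run of T bases commonly used to start cDNA synthesis, can pair with a run of A bases inside an RNA as well as with a poly(A) tail. The priming used for these libraries is not stated there either.

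The last bases of the loci separated them into ends that run into a stretch of A bases and ends that do not, so 8 ends of abundant loci are printed. Each is the last 10 bases of the model with the most reads at the locus and the next 20 bases of the genome (mm10), 5′ to 3′ on the strand of the antisense reads, and runs of at least 6 A are in capitals. The bases are the reverse complement of GENCODE M21 transcript sequences of the sense gene. The 8 ends were not picked by level alone, and their mix does not give the share of A-rich ends, which is stated further below.
Map1b: tcgagtagctAAAAAAAAAAAAAAAAAAAA
2900097C17Rik: cacaaaatgtAAAAAAAAAAAAAAAAAAAA
AI593442: tctgaggctcAAAAAAAAAAAAAAAAAAAA
Gsk3b: gaaatgggccAAAAAAAAAAAAAAAAAAAA
Actb: gacaaaaccAAAAAAAAAAAAAAAcaaaac
Shank1: aaagAAAAAAAAAAAAAgaatgcagcgtgt
Slc1a2: gtgtgtgtgtgtgcatatgaaagggagaga
Nlgn3: aggcaggttgggagtgctaactggattttt

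These windows lie at chr13:99424406-99424435 (plus strand) for Map1b, chr2:156391505-156391534 (plus) for 2900097C17Rik, chr9:52676793-52676822 (plus) for AI593442, chr16:38244380-38244409 (minus) for Gsk3b and chr5:142903492-142903521 (plus) for Actb. The others lie at chr7:44357915-44357944 for Shank1, chr2:102784293-102784322 for Slc1a2 and chrX:101321328-101321357 for Nlgn3, all on the minus strand. In Map1b, 2900097C17Rik, AI593442 and Gsk3b all 20 bases after the end were A, and in Actb 18 were. The A run at Shank1 began before the end, and 10 of the 20 bases after it were A. Slc1a2 and Nlgn3 had 8 and 4 A bases there and no run of 6. At Slc1a2, Nlgn3, Shank1 and Actb the printed end is that of replicate 1. There the leading models of replicate 2 ended at 102784011, 101320297, 44356620 and 142903654, and those ends are not printed. The end was the same base in both libraries at 2900097C17Rik and AI593442, and at Map1b it was 99424415 and 99424414.

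The level of the loci was uneven. The median was 22.1 CPM (mean of both libraries), the lowest 9.91 and the highest 4143 CPM, and 47 loci reached at least 100 CPM. The 12 highest loci held 39.4% of the loci's reads in replicate 1 and 38.6% in replicate 2. Of these 12, 10 lay in a 3′ UTR, the part of an mRNA after its stop codon, and at 11 the antisense reads outnumbered the reads of the sense gene in both libraries. Sense reads here are all reads of the gene's own models on its own strand, over its whole length.

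**Figure D1:**
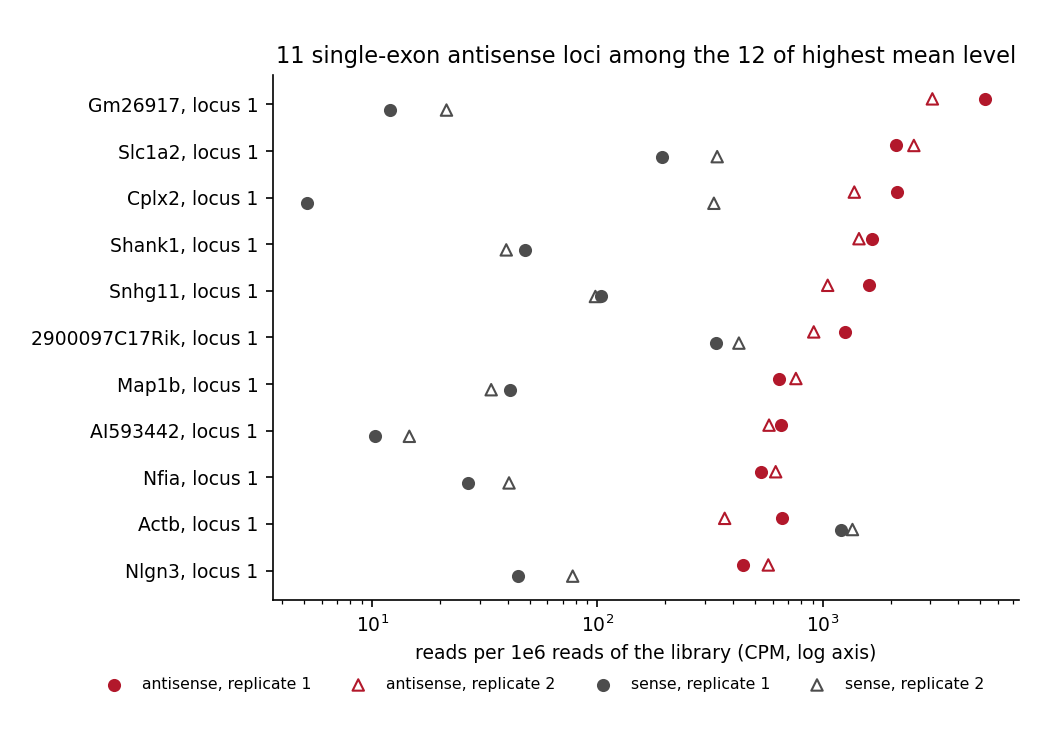
Level of 11 of the 12 loci with the highest mean, as antisense reads (red) and reads of the sense gene (grey) per 1e6 reads of each library (CPM, log axis); circles are replicate 1 and triangles replicate 2. Antisense values lie to the right of the sense values at 10 loci, and at Actb to the left.

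Several of the abundant loci lay opposite genes of the synapse. The highest opposite a protein-coding gene lay in the 3′ UTR of Slc1a2, the main glutamate transporter of astrocytes (ENSMUSG00000005089.15; locus at chr2:102781743-102786610, minus strand), with 2461 and 2253 antisense reads in replicates 1 and 2. Slc1a2 itself had 227 and 302 sense reads, so the antisense share was 91.6% (95% exact Clopper-Pearson interval 90.4 to 92.6) and 88.2% (86.9 to 89.4). Such intervals cover counting error only. The other 3 loci opposite Slc1a2 had 296 and 382 reads in an intron, 216 and 226 in the 3′ UTR and 18 and 15 in another intron, and they share the same sense reads. Slc1a2 and the potassium channel gene Kcnma1 had 4 loci each, the most of any gene, and all 4 at Kcnma1 lay in introns, with 39 and 15, 28 and 13, 16 and 11, and 11 and 11 reads.

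Cplx2 codes for complexin 2, which controls vesicle fusion at the nerve terminal. Its locus (ENSMUSG00000025867.8; chr13:54379553-54379988, minus) spanned 436 nt over the end of the coding sequence and the start of the 3′ UTR, and had 2504 and 1226 antisense reads against 6 and 292 sense reads. The share differed between the libraries, 99.8% and 80.8%. Sense-strand reads that overlapped the locus under any gene name numbered 382 and 288, which gave a mean share of 83.9% ± 4.09 (SD, n = 2), so most of replicate 1's sense reads there carried another gene's name.

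Shank1, a scaffold of the postsynaptic density, had 1928 and 1286 antisense reads in its 3′ UTR (ENSMUSG00000038738.15; chr7:44356620-44359356, minus) and 56 and 35 sense reads. The share was 97.2% (96.4 to 97.9) and 97.4% (96.3 to 98.1), alike in both libraries within the intervals. Nlgn3, a postsynaptic adhesion protein, had 518 and 509 antisense reads in its 3′ UTR against 52 and 69 sense reads (chrX:101320297-101323908, minus). The models with the most reads lay at 101321348-101323908 in replicate 1 and 101320297-101321348 in replicate 2, and shared only base 101321348. The antisense counts of the 2 libraries at Nlgn3 are thus of nearly separate stretches. Grin2b, an NMDA receptor subunit, had 65 and 51 antisense reads, and Nlgn2, the neuroligin of inhibitory synapses, 62 and 45, with 99 and 42 and 94 and 62 sense reads. Their mean shares were 47.2% and 40.9%, but 98.5% and 100% against sense reads on annotated transcripts only. At Snap25, a SNARE protein of synaptic vesicle fusion, antisense reads were far fewer than sense reads, with 145 and 49 against 1418 and 1215.

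Cytoskeleton, signalling and transcription factor genes carried the other abundant loci. Map1b, which binds microtubules in growing axons, had 750 and 675 antisense and 48 and 30 sense reads (chr13:99422066-99424415, plus). Actb, cytoplasmic β-actin, was the exception among the 12 highest, with 767 and 326 antisense reads against 1400 and 1203 sense reads, a share of 35.4% (33.4 to 37.4) and 21.3% (19.3 to 23.5). Nfia, a transcription factor of glial development, had 621 and 549 against 31 and 36, and Sox11, a factor of immature neurons, 111 and 132 against 12 and 18. The kinase gene Gsk3b had 222 and 114 antisense and 9 and 13 sense reads, while the G protein subunit gene Gnb1 had 593 and 357 against 566 and 524. Ncan, a proteoglycan of the matrix around neurons, had 696 and 304 against 53 and 36. The RNA-binding gene Qk had more antisense than sense reads in replicate 1 (308 and 191) and fewer in replicate 2 (144 and 214).

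Loci opposite non-coding RNA genes included the highest of all. Gm26917, a long intergenic RNA gene of chromosome 17 (ENSMUSG00000097971.3; chr17:39843013-39846245, minus), had 6103 and 2722 antisense reads and 14 and 19 sense reads. Its level was 5224 CPM in replicate 1 and 3063 CPM in replicate 2. The annotated gene next upstream on the antisense strand, 108 nt away, is classed as rRNA. The locus at 2900097C17Rik, also classed as long intergenic, had 1467 and 810 antisense and 394 and 377 sense reads. Snhg11, a host gene of small nucleolar RNA that GENCODE M21 classes as protein-coding, had 1881 and 934 against 121 and 87. AI593442, also classed as protein-coding, had 760 and 513 reads in its 3′ UTR against 12 and 13. In all, 667 loci lay opposite a protein-coding gene, 16 opposite a long intergenic RNA gene, 3 opposite a gene absent from GENCODE M21 and 2 opposite a spike-in RNA. The loci opposite the unannotated genes had 55 and 31 (chr7:3417650-3418890, minus), 10 and 16 (chr6:38688241-38690074, plus) and 14 and 12 reads (chr5:104574616-104575653, minus). The 702 loci opposite annotated genes covered 653 genes, 43 of them with more than 1 locus.

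The ERCC spike-in RNAs are made in vitro as 1 strand, and their antisense reads lie against the annotated strand. Whether the strand of the reads or the annotated strand was wrong was not tested. ERCC-00009 had 122 and 63 reads and ERCC-00116 30 and 28 reads, all of them antisense and none sense. Over all ERCC species, 156 of 20091 reads were antisense in replicate 1 (0.776%, 95% exact interval 0.660 to 0.908) and 93 of 10259 in replicate 2 (0.907%, 0.732 to 1.11). Most of them came from ERCC-00009 and ERCC-00116: the other species had 4 antisense reads of 19939 (0.0201%) and 2 of 10168 (0.0197%), a value found after setting those 2 species aside for their antisense reads. Of all reads of the libraries, 9.01% and 6.96% were single-exon antisense. The part of wrongly stranded reads in the tissue loci was not tested. ERCC RNAs have short poly(A) tails and no introns, and it is not stated whether their strand was set as for tissue RNA. Reads of the SIRV RNAs were not looked at for strand.

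By place on the sense gene, introns held the most loci and 3′ UTRs the most reads. Each locus was put in the class that held more of its bases than any other class. Exonic bases were split over several classes, so a locus placed in introns can have more bases in exons. Of the 702 loci opposite annotated genes, 397 (56.6%) lay in introns, 228 (32.5%) in 3′ UTRs, 41 (5.84%) in exons of non-coding transcripts and 30 (4.27%) mostly beyond the gene's ends. A 5′ UTR held 4 loci (0.570%), opposite Satb1 (61 and 35 reads), Smad7 (38 and 17), Dhrs3 (34 and 18) and Stox2 (11 and 10), and coding sequence held 2 (0.285%), opposite Tspoap1 (16 and 33) and Foxc1 (11 and 11). The 3′ UTR loci took 52.6% and 56.5% of the loci's reads, the intron loci 25.5% and 24.9%, and the loci in non-coding exons 18.6% and 15.04%. Gm26917 alone held 6103 and 2722 of the reads in non-coding exons. Median levels were 31.8 CPM in 3′ UTRs, 18.8 CPM in introns and 22.4 CPM in non-coding exons.

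Single-exon antisense loci below the read minimum were placed differently. Of these 26173 loci, 25890 lay opposite annotated genes, and of the 25890, 84.0% lay in introns and 6.37% in 3′ UTRs. The share in 3′ UTRs was 5.65% among loci with no read in one of the libraries, 13.04% at 5 to 9 reads in the lower library, 39.1% at 20 to 49 and 78.4% (29 of 37 loci) at 100 or more, and the share in introns went from 84.5% to 5.41%. These shares are a description, since read counts set the classes. With the bases of annotated transcripts that had reads in these libraries only, 167 of the loci were in 3′ UTRs and 324 in introns.

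**Figure D2:**
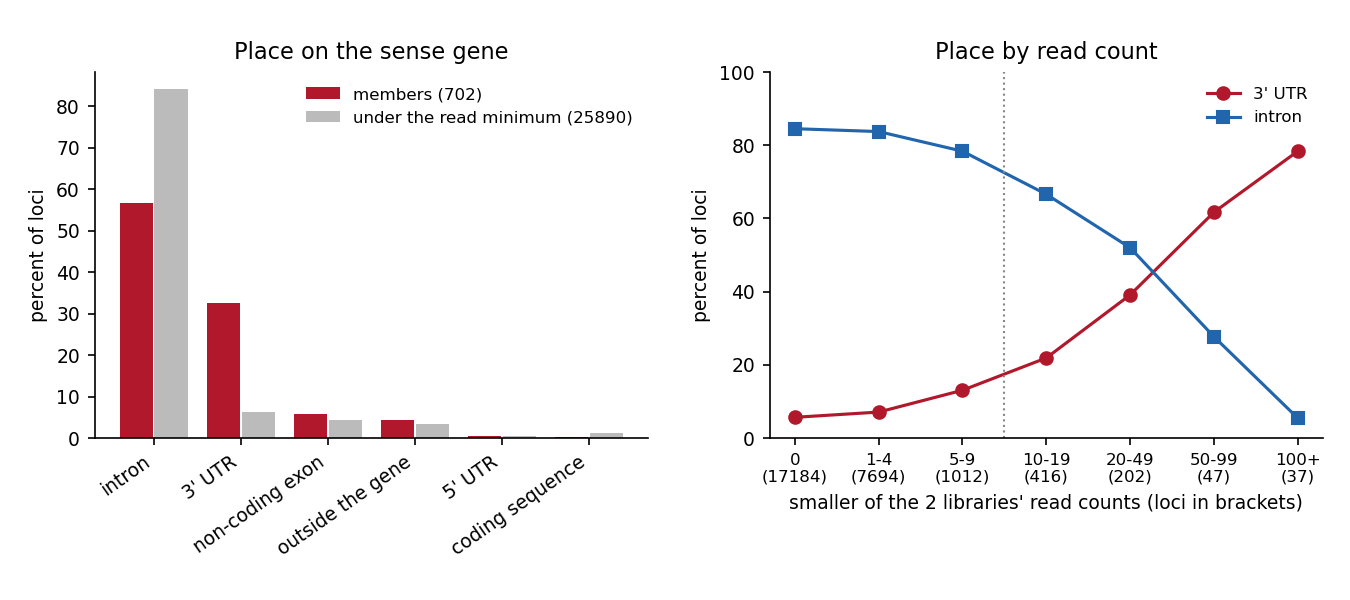
Left, percent of loci opposite annotated genes in each part of the sense gene, for 702 loci with at least 10 reads in each library (red) and 25890 under that minimum (grey). Right, percent in 3′ UTRs (circles) and introns (squares) by the smaller of the 2 libraries' read counts, where the dotted line marks the read minimum; 3′ UTRs go from 5.65% to 78.4% and introns from 84.5% to 5.41%.

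The intron loci were less abundant than those in 3′ UTRs. Their protein-coding sense genes (at least 10 reads over both libraries) had a median of 48.0 CPM, against 42.3 CPM for genes with a 3′ UTR locus. Slc24a2, a sodium-calcium-potassium exchanger, had 127 and 71 antisense reads in an intron against 45 and 36 sense reads of the whole gene. At Fxr2, an RNA-binding relative of the fragile X protein, the intron locus had 86 and 58 reads against 132 and 107. The ubiquitin ligase gene Nedd4 had 62 and 23 against 163 and 157, and the deubiquitinase gene Usp15 29 and 30 against 77 and 66. At Fxr2, Nedd4 and Usp15 no sense read overlapped the locus itself in either library. This held for 165 of the 397 intron loci, and 201 of the 397 lay wholly in introns. Counted against overlapping sense reads only, the median share of the intron loci was 96.4%, and against all reads of the gene 35.1%.

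Counted against all reads of the sense gene, the lowest shares were found at some of the most expressed genes. Cpe, a peptide-processing enzyme, had 67 and 20 antisense reads in an intron against 4888 and 5157 sense reads, 1.35% (1.05 to 1.71) and 0.386% (0.236 to 0.596). The 14-3-3 gene Ywhah had 22 and 16 against 2202 and 1623, and the calcineurin gene Ppp3ca 27 and 16 against 1579 and 1710. Gja1, the main gap junction gene of astrocytes, had 13 and 10 antisense reads in its 3′ UTR against 728 and 906. The low shares of Cpe and Ppp3ca depend on counting sense reads over the whole gene: against sense reads that overlapped the locus (7 and 5 at Cpe, 2 and 5 at Ppp3ca) the mean shares were 85.3% ± 7.45 and 84.6% ± 12.0 (SD, n = 2). Those of Ywhah and Gja1 were 0.983% and 1.42% counted that way. At the other end, 11 loci had no sense read in either library. They include the 2 spike-ins, 3300002P13Rik (66 and 55 antisense reads), the peptide transporter gene Slc15a1 (55 and 13), Gm13780 (16 and 23) and Gm26652 (26 and 12). At 3300002P13Rik, 55 and 31 sense-strand reads overlapped the locus under other names, and they are the reads of the chromosome 7 locus opposite an unannotated gene given above, so the 2 loci lie opposite each other.

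Over all 707 loci the antisense share had a median of 42.4%, with quartiles of 19.1% and 70.4%. The median was 46.0% in replicate 1 and 39.3% in replicate 2. Antisense reads outnumbered sense reads in both libraries at 260 loci, were fewer in both at 368, and the 2 libraries differed or a library had equal numbers at 79. The share was at least 90% in both libraries at 60 loci, 27 of them in 3′ UTRs and 18 in introns, and at most 10% in both at 66, of which 11 lay in 3′ UTRs and 51 in introns. The median was 57.4% for 3′ UTR loci, where 117 of 228 had more antisense than sense reads in both libraries, and 35.1% for intron loci, where 108 of 397 did. Counting only sense reads that overlapped the locus raised the number with more antisense reads to 470 and the median share to 83.01%. Across the loci, antisense and sense CPM had a Spearman's rho of -0.0064 (n = 707, each level from the same 2 libraries, as a description).

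**Figure D3:**
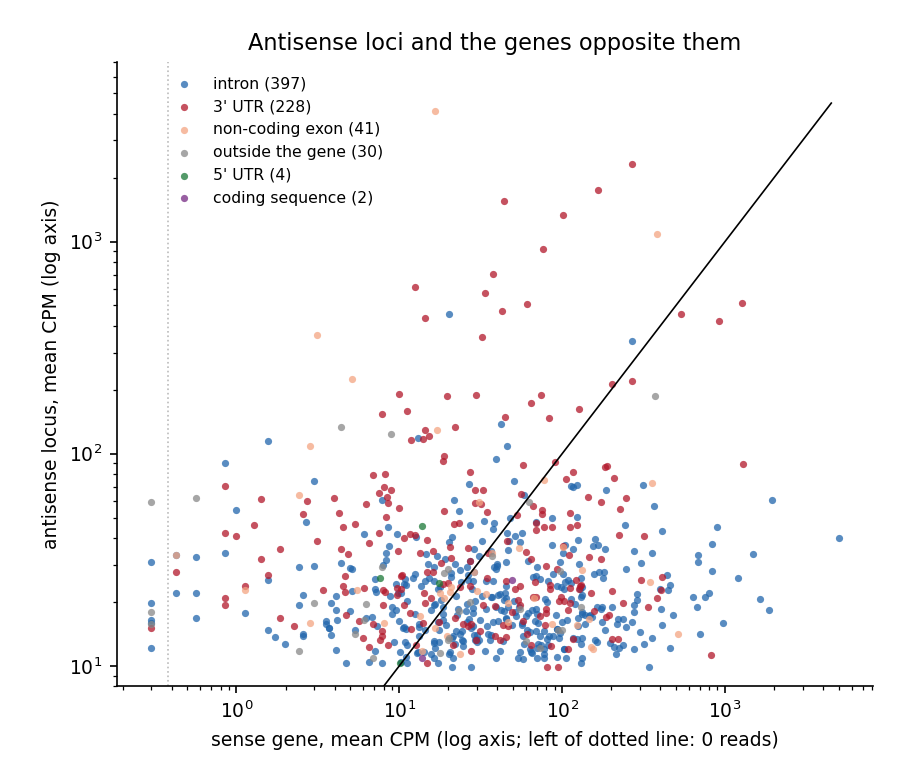
Mean CPM of each antisense locus against mean CPM of the gene opposite it (both log axes; the 702 loci opposite annotated genes, coloured by place), with the line of equal levels. Loci in 3′ UTRs make up most of the points above 100 CPM, and points left of the dotted line had no sense read.

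The antisense reads stopped at reproducible positions more often than they started at them. The 3′ ends of the leading models, those with the most reads in each library, fell on the same base in both libraries at 410 of 707 loci (58.0%) and within 20 nt at 537 (76.0%). Their 5′ ends did so at 167 (23.6%) and 258 (36.5%), with a median difference of 345 nt. In introns 241 of 397 loci (60.7%) ended on the same base, and in 3′ UTRs 115 of 228 (50.4%). Model ends are the authors' and need not be the extent of every read: at 14 loci a leading model was shorter than 100 nt, among them Gnb1. Merged loci spanned a median of 2997 nt, from 26 to 12492.

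At 262 loci the model with the most reads in either library ended inside an exon of the sense gene, away from its borders. That exon had to hold the 40 bases up to the end and the next 20, and other exon ends were left out. The next bases could thus be read from transcript sequence, and 141 of the 262 (53.8%) had at least 12 A among the next 20 bases. The counts fell into separate ranges, with at most 9 A at 112 loci, 10 to 14 at 22 and at least 15 at 128, of which 51 had 20 as Map1b and Gsk3b did. Among the 207 such loci in 3′ UTRs the share was 51.7%, and among 2376 loci under the read minimum it was 49.3%. It was 3.38% among 1058758 windows of the same length along the same exons on the antisense strand. A run of 6 A was found at 53.1% of the 262 loci, at 43.3% of the loci under the minimum and in 2.67% of all windows, counting runs that overlap the 12 A rule. The poly(A) signal hexamers AATAAA or ATTAAA, searched on the antisense strand in the 40 bases up to the end, were found at 8.40% of the 262 loci, at 11.2% of those under the minimum and in 5.10% of all windows. These matches describe the sequence and are not shown to be sites.

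Loci of the 3′ UTR with and without an A-rich end differed little in level. The 107 with at least 12 A had a median of 33.5 CPM and an antisense share of 62.8%, and 62 of them had more antisense than sense reads in both libraries. The 100 others had 32.6 CPM and 46.3%, and 47 did. The ends of the leading models fell on the same base in both libraries at 61 of the 107 and at 47 of the 100. Sequence beyond the exons was not used here, so the ends of most intron loci were not read.

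The starts of many 3′ UTR loci coincided with the ends of their sense genes. At 57 of 702 loci the first base was exactly the last annotated base of the sense gene, 52 of these in 3′ UTRs, and at 129 it lay within 1000 nt of it, 112 in 3′ UTRs. Ncan, Snap25, Atp2b2 and Nlgn2 were among the loci with the same base. Relative to the gene's 3′ end, with negative values inside the gene, the median 5′ end of the 3′ UTR loci lay at -877.5 nt and the median 3′ end at -3485 nt. Few loci followed closely on another gene of their own strand: 87 began within 5000 nt downstream of an annotated gene, and in 32 of these that gene had at least 10 reads in each library. The median distance to the next gene upstream on the antisense strand was 41158 nt, and 17 loci overlapped an annotated gene of their own strand.

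**Figure D4:**
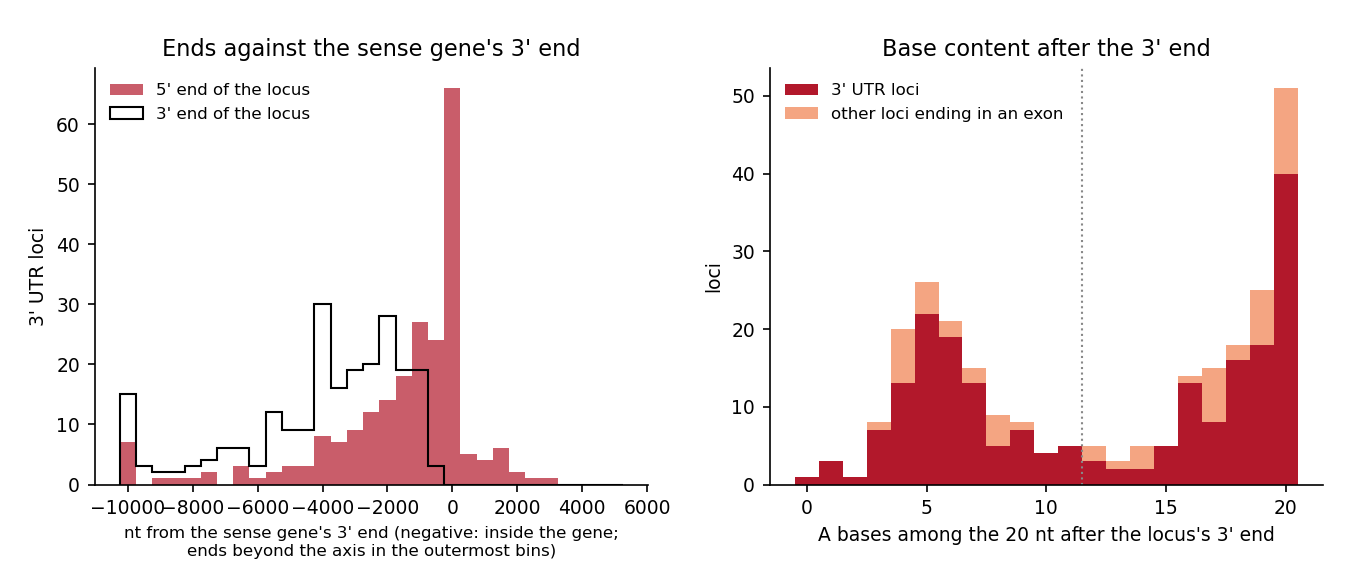
Left, distance in nt of the 5′ end (filled) and 3′ end (line) of each of the 228 loci in 3′ UTRs from the annotated 3′ end of the sense gene, negative inside the gene, in bins of 500 nt. Right, number of A bases among the 20 nt after the 3′ end for the 262 loci whose end could be read within an exon. The dotted line marks the minimum of 12 A, and 141 loci lie right of it.

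Sense genes were longer than other expressed genes. Protein-coding genes with a locus (562 with at least 10 reads over both libraries) had a median longest 3′ UTR of 2435.5 nt and a median gene span of 50372.5 nt, against 1406 and 25148 nt for all 11046 protein-coding genes with as many reads. Genes with a 3′ UTR locus (198) had a median 3′ UTR of 3829.5 nt, and genes with an intron locus (329) a median span of 57607 nt. These medians are a description, and length was not matched between the sets. The median sense level was 44.1 CPM against 30.6 CPM for all.

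Of the functional lists, genes of RNA binding and splicing had a locus most often. Of all genes with at least 10 reads, 4.94% had one (577 of 11674), and of the listed RNA binding and splicing genes 21 of 70 (30%), with a median antisense level of 21.8 CPM against 21.8 CPM over all. Cell adhesion genes followed with 14 of 69, then genes of glutamate receptors and the postsynaptic density with 10 of 51, cytoskeleton and motors with 12 of 67, transcription and chromatin with 12 of 75, and kinases, phosphatases and G proteins with 15 of 99. The GABA list had 3 of 20, presynaptic release 7 of 48, ubiquitin and protein turnover 8 of 56, membrane traffic 8 of 65, where Snx27 led with 79 and 31 antisense reads, and ion channels and pumps 8 of 69, with Slc24a2 and the calcium pump gene Atp2b2 (112 and 61 reads) in front. Glia and myelin genes had 3 of 51, Slc1a2, Ncan and Gja1. None of the 58 genes of mitochondria and metabolism had one. The lists were written with earlier results of these data known and were not matched on level or length, so the shares are not evidence that a function goes with antisense reads.

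Whether sense genes differed between the libraries was tested on sense reads, which the choice of loci did not use. With 1 library on each side the test compares these 2 libraries by their reads and not conditions, and nothing but the pool of animals is labelled as differing. Over all 11681 annotated genes with at least 10 reads, 11.5% differed (1342 genes; exact binomial test, two-sided, of each gene's reads against library totals, with Benjamini-Hochberg adjusted p of 0.05 or less). Those higher in replicate 1 made up 5.24% and those higher in replicate 2 made up 6.25% of all genes. Of the 577 sense genes tested, 86 (14.9%) differed, 15 higher in replicate 1 and 71 higher in replicate 2. With totals scaled by TMM, which lowered every log2 ratio by 0.12, 66 differed, 25 higher in replicate 1 and 41 in replicate 2, beside 10.1% of all genes, whose split turned to 805 higher in replicate 1 and 376 in replicate 2. The median log2 ratio of replicate 2 over replicate 1 was 0.26 for the sense genes and 0.11 for all genes. Of the listed genes, whether or not they carried a locus, 4 of the 67 cytoskeleton and motor genes were higher in replicate 1 and 17 in replicate 2 by the same test (7 and 9 with TMM). The numbers were 2 and 9 of 51 for glutamate receptors and the postsynaptic density (3 and 1 with TMM), 2 and 12 of 70 for RNA binding and splicing (2 and 5) and 1 and 30 of 99 for kinases, phosphatases and G proteins (1 and 17). They were 5 and 19 of 51 for glia and myelin (6 and 14 with TMM) and 11 and 15 of 58 for mitochondria and metabolism (13 and 8). The share of choroid plexus reads given above moved with the libraries too, and its part in this was not tested.

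Among named sense genes, Slc1a2 was higher in replicate 2 by 0.80 on the log2 scale (log2 of CPM + 1; 194 and 340 CPM; adjusted p = 1.44e-08, exact binomial test) and Gja1 by 0.71 (623 and 1019 CPM; adjusted p = 1.18e-20). Cpe (0.47), Ppp3ca (0.51) and Qk (0.56) were also higher in replicate 2, and Grin2b was lower, at -0.83. Gnb1, 2900097C17Rik, Actb, Nlgn3 and Snap25 passed in the same direction as Slc1a2 with library totals but did not with TMM-scaled totals, and Ywhah passed with TMM and with median-ratio size factors but not with library totals (adjusted p = 0.00543, 0.00627 and 0.659, exact binomial test), higher in replicate 1 where it passed. Cplx2 passed with 6 and 292 reads, where the change of gene name described above applies. Shank1 had 47.9 and 39.4 CPM and did not pass (adjusted p = 0.706, exact binomial test), nor did Map1b and Nfia.

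The antisense level of the loci leaned to replicate 1. CPM was higher in replicate 1 at 450 loci and in replicate 2 at 257, and the median log2 ratio of replicate 2 over replicate 1 was -0.19, from -1.98 to 1.58. The lean was largest in short loci. The median was -0.58 for the 42 loci of at most 500 nt and -0.44 for 47 loci up to 1000 nt. It was -0.25 for 138 up to 2000 nt, -0.13 for 255 up to 4000 nt and -0.12 for the 225 longer ones. The shortest class had median levels of 35.9 and 20.8 CPM in replicates 1 and 2, and the longest 22.3 and 19.1 CPM. The read minimum stood at 8.56 and 11.3 CPM, and the part of level and minimum in these ratios was not tested. Gm26917, Cplx2, Snhg11 and Actb were lower in replicate 2, by values of -0.77, -0.64, -0.62 and -0.84, and Slc1a2, Map1b, Nfia and Nlgn3 were higher, by 0.27, 0.24, 0.22 and 0.37. At Slc1a2 the antisense locus and the sense gene were thus both higher in replicate 2. The same held at Nlgn3 with library totals, but its antisense reads lay on nearly separate stretches in the 2 libraries. Its sense gene did not pass with TMM-scaled totals. Across the loci antisense CPM of the 2 libraries had a Spearman's rho of 0.782 (n = 707), a description limited by the read minimum.

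**Figure D5:**
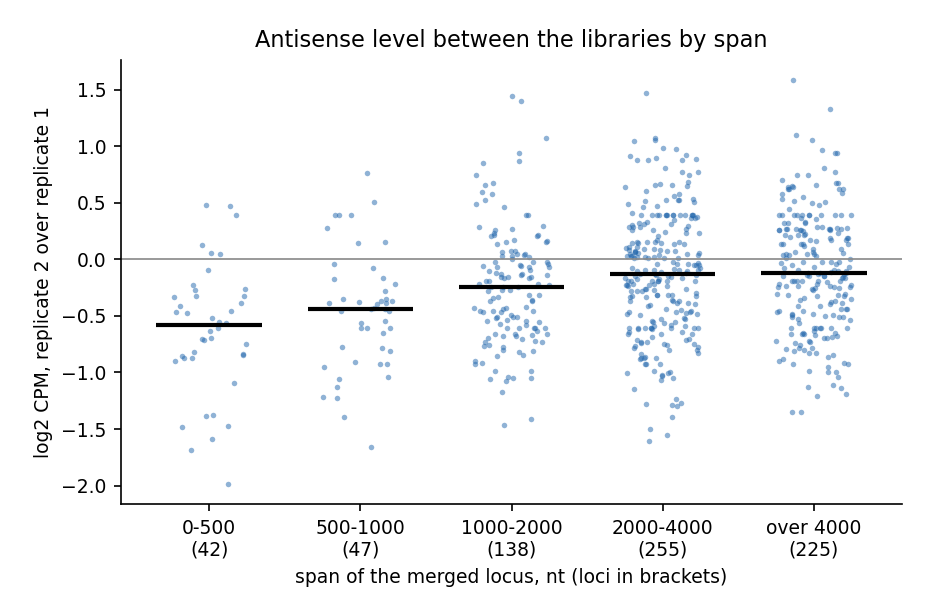
Log2 ratio of antisense CPM, replicate 2 over replicate 1, for the 707 loci in 5 classes of span in nt; each point is a locus and bars are medians. Medians go from -0.58 in the shortest class to -0.12 in the longest.

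The read minimum passed through a dense range of loci. The loci just inside, opposite Mcmbp, Med28 and Per1, had 10 and 10 reads each, and the loci just outside, opposite Apod, Rasal1 and Xkr4, had 51 and 9, 45 and 9, and 35 and 9 reads. In all, 69 loci had 10 reads in the lower library and 102 had 9. A further 918 loci had at least 10 reads in a single library, 852 of them in the deeper replicate 1, and 37 of the 918 had no antisense read in the other library. At 39 of the 918 the other library had at least 10 reads of the same strand when reads under any name were counted. Of the 707 loci, 205 in replicate 1 and 405 in replicate 2 had under 20 reads, so many of the shares and levels rest on few reads.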

How the data were processed

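Long-read RNA-seq of 2 hippocampus libraries was analysed from deposited tables of read counts per transcript model, whole numbers that the authors did not scale, per the file headers. Per the file headers, the genome build is mm10 and reads were assigned to transcripts of GENCODE M21 and to further models built from the library itself, which the deposited annotation credits to TALON. No aligner, version or read filter is given in the sources used here. All 21908 and 20594 annotated models with reads had the coordinates of GENCODE M21, which was used for place.

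Models classed as antisense with 1 exon were joined to their coordinates, merged on any shared base of the same strand, and kept at 10 or more reads in each library. CPM take all reads of a table as total. The antisense share is antisense reads over antisense plus sense reads, with exact Clopper-Pearson intervals at 95%. Sense genes were tested by an exact binomial test (two-sided) of each gene's reads against library totals, over all annotated genes with at least 10 reads, adjusted by Benjamini-Hochberg and called at 0.05 or less. With 1 library on each side no spread can be estimated, so edgeR's quasi-likelihood test was not possible. Binomial p-values leave out the spread between pools of animals and are therefore too small for any statement beyond these 2 libraries. Merging, place and the test were tested on simulated data.

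The members and the 13 gene lists were chosen with earlier results of these data known. Named loci were the 12 highest by mean CPM, the 4 with the highest and 4 with the lowest share, the 2 highest of each list, and 3 on either side of the read minimum. Kcnma1, the spike-ins, the unannotated genes and the loci in 5′ UTRs and coding sequence were named after their values were seen. Some loci that this rule names are not reported here. Alternatives were other read minimums, merging rules, sense counts, annotation subsets, scalings and each library left out. Placing loci by leading models, and leaving out spike-ins, unannotated genes and Gm26917, were added after seeing the data. TMM factors came from edgeR 4.0.16 and size factors from DESeq2 1.42.0 in R 4.3.3, while scipy 1.17.1, pandas 2.3.3, numpy 2.4.6 and matplotlib 3.10.9 ran under Python 3.11.15.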

Additional observations from a re-analysis of the deposited data

How the results depend on the processing

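The number of loci depended most on the read minimum: 1720 at 5 reads in each library and 289 at 20, against 707. With a single library it ranged from 773 to 1559. The median antisense share was 83.01% against overlapping sense reads and 72.1% against sense reads on annotated transcripts, and loci with more antisense than sense reads numbered 470 and 420. Without either library the share ranged from 39.3% to 46.0% and that number from 273 to 319. A stricter overlap gave 681 loci, spliced models included 729, models with 1 read left out 706, and without spike-ins, unannotated genes and Gm26917 701. Loci in 3′ UTRs ranged from 167 to 227 and in introns from 324 to 398 under other annotations and ends. The median level ranged from 22.2 to 22.4 CPM under other totals. Sense genes called numbered 65 of 577 (11.3%) with size factors and 66 of 577 (11.4%) with TMM, beside 10.2% and 10.1% of all genes. With annotated transcripts they numbered 68 of 411 (16.5%), beside 12.0% of all genes. Without a minimum they numbered 80 of 644 (12.4%), beside 6.07%, and from 50 reads 97 of 377 (25.7%), beside 22.1%. Of 36 named loci, the share moved by at least the spread between libraries at 14 with overlapping sense reads and at 22 with annotated transcripts. Both counts include Slc15a1 and Gm26652, whose share stayed at 100% with no spread. The count with annotated transcripts also includes 3300002P13Rik and Gm13780, unchanged at 100%. The cause was not tested. No paired analysis was possible because there is 1 group. Depth limits loci near 10 reads (8.56 and 11.3 CPM).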
